A study of Arabidopsis thaliana with 12 samples.

Results

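COR15A, COR15B, COR47 and AT4G30650 are 4 nuclear genes of Arabidopsis thaliana known for their induction by cold, and their transcripts were followed here through a day at normal growth temperature. The 4 genes were picked by symbol in the annotation table of the array platform, and each stood on 1 probe set, so the members are 4 of 22746 probe sets without controls. All 4 passed the filter on dim probe sets, which left 14185 probe sets tested. The samples were the aerial parts of wild-type seedlings of the ecotype Columbia, 10 days old, grown on agar plates with sucrose in 16 h of light and 8 h of dark. The labels give no treatment, and harvest time was the only difference between groups. Plants were taken at 6am, when the lights came on, and then 6 h (12pm), 12 h (6pm) and 18 h (12am) later, of which the latest fell in the dark. There were 3 replicate arrays of total RNA at each time, 12 in all. Nothing in the labels ties the replicates to separate plates or cultures, so the p-values measure the spread between these arrays, which may be technical. The CCA1-ox line that the series design also names was not analysed here.

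In the textbook picture, cold induces the CBF (DREB1) transcription factors, which bind a short promoter element shared by many cold-regulated genes and switch these on as a group. COR15A and COR15B encode small proteins that are imported into the chloroplast and protect its membranes while cells freeze and dry out. COR47 encodes a dehydrin, a disordered and strongly hydrophilic protein that protects other proteins and membranes from water loss. AT4G30650 encodes a very small hydrophobic membrane protein of a family known for its response to low temperature and salt. The circadian clock is known to set the time of day at which the CBF pathway can be switched on, and a daily rhythm of its targets has been described in plants kept warm.

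All 4 transcripts had their lowest mean at lights on and rose steeply over the first 6 h of light. Their means were highest at 6pm and part of the way down by 12am. For COR15A and COR47 the arrays of 12pm and 6pm overlapped, and 6pm was not called higher than 12pm. From the lowest to the highest mean, the rise was 138-fold for AT4G30650, 78.3-fold for COR15B, 72.9-fold for COR15A and 4.302-fold for COR47. The fold of AT4G30650 was 90.8 without 6am replicate 1, which read 4.19 against 6.12 and 5.89 on replicates 2 and 3. By limma's moderated F-test over the 4 times, adjusted over all tested probe sets, 4 of 4 were called, where 46.8% of all tested probe sets were. The genes were put forward with earlier results of these data known, so these counts describe them and are no independent evidence that they vary.

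**Figure D1:**
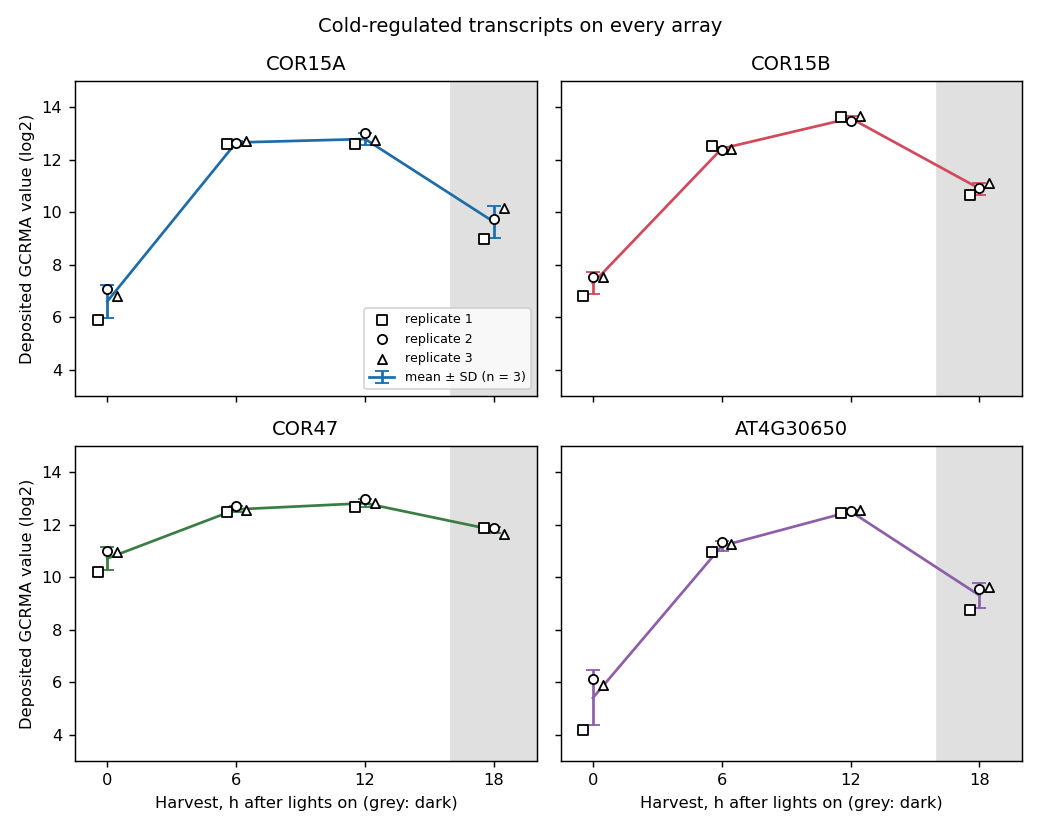
Deposited GCRMA values on the log2 scale (vertical axis) against hours after lights on (horizontal axis) for each gene, with the dark period in grey. Open symbols are single arrays, set slightly apart by replicate, and lines with bars give the mean and SD of 3 arrays. All 4 rise from 6am to 12pm, and COR15A and COR47 are nearly level between 12pm and 6pm.

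Replicate 1 stood apart from the others. Within a time, replicate 1 correlated with replicates 2 and 3 at 0.967 to 0.984 over the tested probe sets, while those correlated with each other at 0.986 to 0.997. For the GAPDH control, the 3′ end exceeded the 5′ end by 5.34 log2 on 6am replicate 1 against 3.70 and 3.83 on replicates 2 and 3, a gap that widens as RNA breaks or labelling stops short. Replicate 1 had the widest gap at every time. The same gap for actin did not separate replicate 1, with 6.91, 6.92 and 6.91 at 6am. It was wider at every other time, with 7.36, 7.75 and 7.51 at 12pm, 7.97, 7.76 and 7.61 at 6pm, and 7.06, 7.35 and 7.07 at 12am. The part of this gap in the differences between times was not tested. Of 10 shoot markers 5 had a named probe set and all 5 were tested. By the F-test 4 differed between times, where 46.8% of all tested probe sets did. Between the lowest and highest time mean, the antenna genes LHCB4.3 and LHCB4.2 spanned 6.29-fold (7.28 at 12pm to 9.93 at 12am) and 2.37-fold (13.03 at 12am to 14.27 at 12pm). The guard cell gene GC1 spanned 1.65-fold and was called higher at 12pm and at 6pm than at 6am, and RCA (Rubisco activase) spanned 1.48-fold (13.05 to 13.61). LHCB4.1, the one not called (F-test adjusted p = 0.107 by limma), spanned 1.201-fold. The part of these shifts in the results below was not tested. Of 8 root markers 2 had a named probe set. PYK10, abundant in roots, was between 11.47 and 11.90 (F-test adjusted p = 0.207 by limma), and the root-hair gene EXP7 stayed at 2.104, where the table has its floor. None of the 3 seed markers had a named probe set.

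COR15A (AT2G42540), the better known of the chloroplast pair, read 5.90, 7.09 and 6.81 on the 3 arrays at 6am, on the deposited log2 scale. Its values were 12.61, 12.65 and 12.71 at 12pm, and 12.60, 13.02 and 12.75 at 6pm. At 12am they were 8.98, 9.74 and 10.17. The 6am and 12am arrays overlapped with no other time, while those of 12pm and 6pm overlapped. Means were 6.60 ± 0.62 at 6am, 12.66 ± 0.05 at 12pm, 12.79 ± 0.21 at 6pm and 9.63 ± 0.60 at 12am (SD, n = 3). The rise thus lay almost whole, 97.9% of it on the log2 scale, in the first 6 h of light.

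COR15B (AT2G42530) lies next to COR15A in the genome and encodes a closely related chloroplast protein. It read 6.80, 7.54 and 7.54 at 6am, 12.50, 12.37 and 12.39 at 12pm, 13.61, 13.48 and 13.65 at 6pm, and 10.65, 10.93 and 11.11 at 12am. No time overlapped with another, so the order 6am, 12am, 12pm, 6pm held on every array. Means were 7.29 ± 0.43, 12.42 ± 0.07, 13.58 ± 0.09 and 10.90 ± 0.23 from 6am to 12am (SD, n = 3).

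COR47 (AT1G20440), the dehydrin gene, had the narrowest range of the 4, and its lowest reading was at 6am. It read 10.20, 10.99 and 10.96 at 6am, 12.49, 12.71 and 12.56 at 12pm, 12.66, 12.98 and 12.82 at 6pm, and 11.87, 11.87 and 11.65 at 12am. The arrays of 12pm and 6pm overlapped, and all other times stood apart. Means were 10.72 ± 0.45, 12.59 ± 0.11, 12.82 ± 0.16 and 11.80 ± 0.13 from 6am to 12am (SD, n = 3).

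AT4G30650, the membrane protein gene, had the widest range. It read 4.19, 6.12 and 5.89 at 6am, 10.95, 11.34 and 11.28 at 12pm, 12.44, 12.53 and 12.55 at 6pm, and 8.74, 9.54 and 9.63 at 12am. No time overlapped with another. Means were 5.40 ± 1.05, 11.19 ± 0.21, 12.51 ± 0.06 and 9.31 ± 0.49 from 6am to 12am (SD, n = 3). The adjusted p of the F-test was 6.54e-07 for AT4G30650, 1.23e-07 for COR15A, 5.76e-09 for COR15B and 2.38e-05 for COR47 by limma.

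In these extracts of whole shoots, fewer cells with a transcript and less of it per cell cannot be told apart. The highest value among the 4 genes was 13.65, against 15.05 for the whole table, and whether bright probes were compressed there was not tested. The deposited values are normalized between arrays, so a level is relative to the other transcripts of the same array.

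The step from 6am to 12pm raised 4 of 4 genes, where 17.3% of all tested probe sets were called higher at 12pm. COR15A rose by 6.06 ± 0.32 on the log2 scale (model SE), 66.5-fold, the sixth largest rise among the 14185 tested probe sets (adjusted p = 1.31e-07 by limma). AT4G30650 rose by 5.79 ± 0.42, 55.4-fold, and COR15B by 5.13 ± 0.20, 35.1-fold. COR47 rose by 1.87 ± 0.20, 3.65-fold (adjusted p = 3.23e-05 by limma). The median difference over all tested probe sets was -0.02, a value that normalization between arrays holds near 0. The fold of AT4G30650 depends on one array, since it was 36.4 without 6am replicate 1.

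At the step from 12pm to 6pm the calls differed between the genes. COR15B rose by a further 1.16 ± 0.20, 2.23-fold, with every 6pm array above every 12pm array (adjusted p = 0.00228 by limma). COR15B was called and the other 3 were not, where 6.38% of all tested probe sets were called higher at 6pm. AT4G30650 differed by 1.32 ± 0.42, and its arrays did not overlap either, but the test narrowly missed the threshold (adjusted p = 0.0562 by limma). The call of AT4G30650 depended on the setting. Its adjusted p by limma ran from 0.000349 with replicates 2 and 3 alone to 0.157 without the filter on dim probe sets. From the 6 arrays of 12pm and 6pm by themselves it was 0.00185 by limma. The main fit uses 1 spread for all times, and the SD of AT4G30650 was 1.05 at 6am, 0.21 at 12pm and 0.06 at 6pm. COR15A differed by 0.13 ± 0.32, with a 95% interval of -0.57 to 0.83, and COR47 by 0.24 ± 0.20, with an interval of -0.20 to 0.67. The estimate of 1.16 for COR15B lies outside both, but its own interval of 0.73 to 1.59 overlaps that of COR15A. The genes were not tested against each other at this step.

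**Figure D2:**
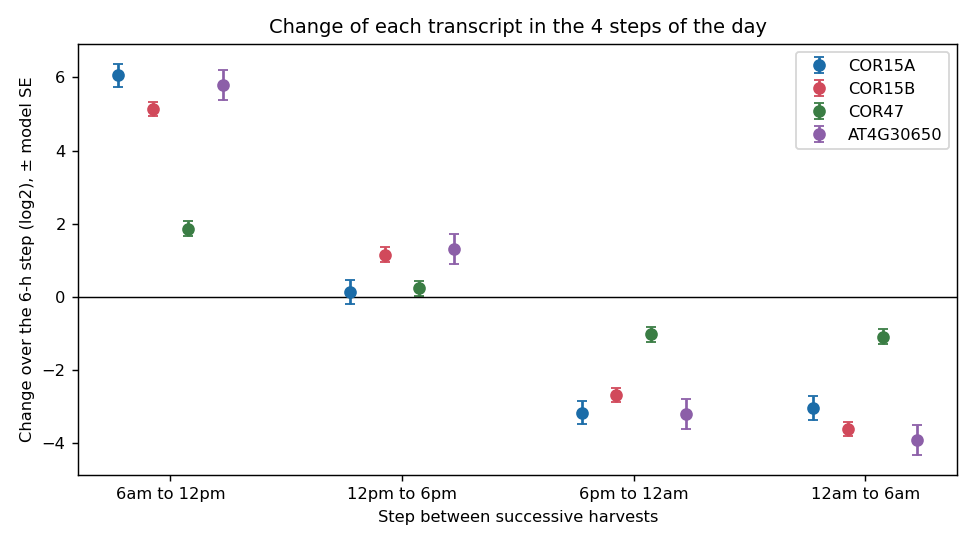
Change on the log2 scale (vertical axis) of each gene over the 4 steps between successive harvests (horizontal axis), each point a difference of 2 time means with its model SE. The rise falls mainly in the first step, and all 4 genes come down over both of the last steps, COR15B by 2.68 and then 3.61.

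From 6pm to 12am, a step with the last 4 h of light and the first 2 h of dark, 4 of 4 genes fell, where 9.97% of all tested probe sets were called lower at 12am. AT4G30650 fell by 3.20 ± 0.42, COR15A by 3.16 ± 0.32, COR15B by 2.68 ± 0.20 and COR47 by 1.02 ± 0.20, with adjusted p of 0.000261, 4.65e-05, 3.92e-06 and 0.00349 by limma. All 4 were still higher at 12am than at 6am, by 14.99-fold, 8.15-fold, 12.2-fold and 2.11-fold in the same order, where 12.5% of all tested probe sets were called higher. For AT4G30650 that fold was 9.86 without 6am replicate 1. On the log2 scale 51.1% of the fall of COR15A from 6pm to 6am had taken place by 12am, against 42.7% for COR15B, 45.1% for AT4G30650 and 48.7% for COR47.

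Over the 12 h from lights on, 4 of 4 genes were higher at 6pm than at 6am, where 16.7% of all tested probe sets were called higher. The rise of AT4G30650 (7.11 ± 0.42, adjusted p = 1.95e-07 by limma) was the third largest rise among the 14185 probe sets, and was 90.8-fold instead of 138-fold without 6am replicate 1. With replicates 2 and 3 alone the folds between 6am and 6pm were 93.0 for AT4G30650, 65.2 for COR15B, 61.1 for COR15A and 3.80 for COR47. All 4 were lower at 12am than at 12pm, where 14.2% were called lower: COR15A by 8.16-fold, AT4G30650 by 3.70-fold, COR15B by 2.88-fold and COR47 by 1.73-fold. The 6 differences share arrays and are not independent of each other.

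Replicate 1 was below both other replicates at 6am for all 4 genes, by 1.81 for AT4G30650, 1.05 for COR15A, 0.78 for COR47 and 0.75 for COR15B against the mean of replicates 2 and 3 on the log2 scale. At 12pm the same distances were between 0.36 below and 0.12 above. The part of the RNA quality values above in this low 6am reading was not tested. Every called difference kept its call with replicates 2 and 3 alone.

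Next to the whole table, 3 of the 4 genes were among the widest day ranges. A range between the lowest and highest time mean of at least 6 on the log2 scale was found for 36 of 14185 tested probe sets, 0.254%, and AT4G30650 (7.11), COR15B (6.29) and COR15A (6.19) were among them. The range of COR47 was 2.105, and 7.52% of tested probe sets reached at least 2. The median range was 0.64. These places are a description, since the genes were put forward from this table.

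**Figure D3:**
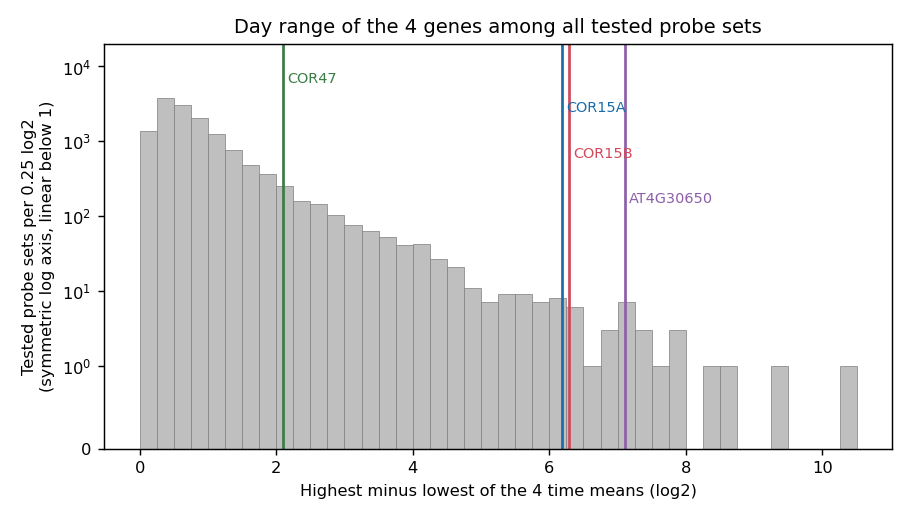
Number of tested probe sets (vertical axis, symmetric log scale) by the difference between the highest and lowest of the 4 time means on the log2 scale (horizontal axis, bins of 0.25). Coloured lines mark the 4 genes: COR47 at 2.105 and the other three between 6.19 and 7.11.

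The day curve was split into a single 24-h wave and a 12-h alternation, which is the departure from that wave. A 24-h harmonic was called for 4 of 4 genes, where 44.8% of all tested probe sets were called, and it took 91.9% of the variance between times for COR15A, 93.3% for COR15B, 93.4% for COR47 and 94.2% for AT4G30650. Among probe sets called by the F-test the median was 88.3%, so the shares of the 4 genes were only slightly higher. The harmonic holds most of the degrees of freedom between times, so a large share comes easily. The fitted peak fell 10.3 h after lights on for COR15A, 10.6 h for COR47, 11.0 h for AT4G30650 and 11.1 h for COR15B. Computed for each replicate number by itself, the peak had an SD of 0.18 h, 0.40 h, 0.06 h and 0.11 h in that order (n = 3). The main fit did not use this grouping of arrays by number. Harvests 6 h apart fix such hours only through the shape of the curve that is fitted. Averaging 6am with 6pm and subtracting the average of 12pm and 12am gives a 12-h alternation, which was called for 3 of 4 genes, where 13.8% of all tested probe sets were called in either direction. It was -1.45 ± 0.23 for COR15A, -1.29 ± 0.29 for AT4G30650 and -1.22 ± 0.14 for COR15B, and -0.42 ± 0.14 for COR47, which was not called (adjusted p = 0.0683 by limma).

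COR15A and COR15B are neighbours with related sequences, and their difference on the same array shows whether their readings kept 1 ratio over the day. The difference COR15A minus COR15B was 0.10, 0.28 and 0.32 on the log2 scale at 12pm. It was -0.89, -0.45 and -0.73 at 6am, -1.01, -0.47 and -0.90 at 6pm, and -1.67, -1.19 and -0.95 at 12am. The 12pm arrays were above 0 and all 9 others below it. Means were 0.23 ± 0.12 at 12pm, -0.69 ± 0.22 at 6am, -0.79 ± 0.29 at 6pm and -1.27 ± 0.37 at 12am (SD, n = 3). A two-sided exact permutation test of the difference over the 4 times gave p = 0.00182, where 6.49e-05 is the smallest p the design allows. With replicates 2 and 3 alone the exact p was 0.0381. By the means, the COR15A reading gained on that of COR15B between 6am and 12pm and lost that gain by 6pm. The permutation test takes the 4 times together, and neither step was tested by itself. Probe sets differ in brightness per molecule, so the sign of the difference says nothing about which transcript is more abundant. Whether both probe sets respond alike from low to high levels was not tested. A change in the difference is therefore not a measured change in the ratio of transcript amounts. Cross-hybridisation between the related genes was not tested.

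**Figure D4:**
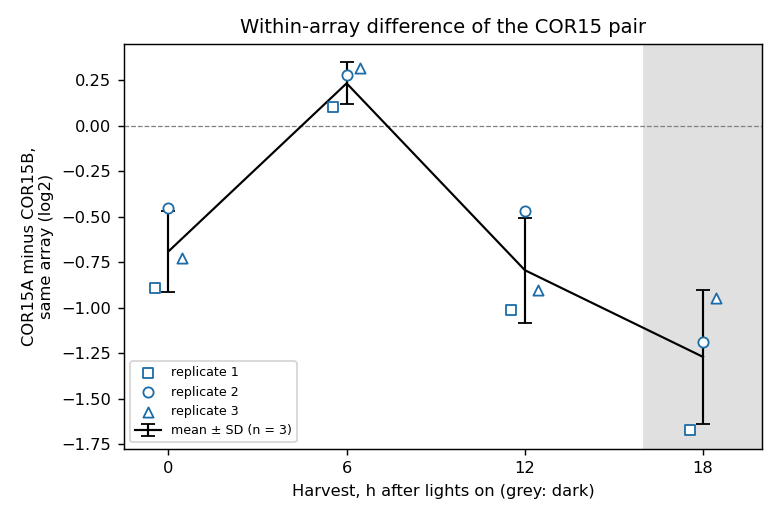
COR15A minus COR15B on the same array, log2 (vertical axis), against hours after lights on (horizontal axis), with the dark period in grey. Open symbols are the 3 replicates, set slightly apart, and the line gives mean and SD; the 12pm arrays lie above 0 and all others below it.

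AT4G30650 also has a neighbour of its own family. AT4G30660, the next gene in genome order, was at 7.94 ± 0.20 at 6am, 12.09 ± 0.23 at 12pm, 12.53 ± 0.05 at 6pm and 10.50 ± 0.19 at 12am (SD, n = 3), on the deposited log2 scale. Its range was 24.1-fold beside the 138-fold of AT4G30650, and it stood above its 6am level by 4.59 ± 0.16 at 6pm and 2.56 ± 0.16 at 12am. The F-test called it with an adjusted p of 8.29e-09 by limma. AT2G24040, of the same family, was level, between 8.45 and 8.62 at all times (F-test adjusted p = 0.915 by limma). Of 8 genes listed for the family, 5 had a named probe set and 3 were tested. AT1G57550 and AT2G38905 stayed at or near the floor of the table, with highest readings of 2.104 and 2.32.

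COR47 belongs to the dehydrins, of which 10 were listed, 6 had a named probe set and 3 were tested. All 3, COR47 included, were called by the F-test, where 46.8% of all tested probe sets were. LTI30, a dehydrin strongly induced by low temperature, had its highest mean at 12pm, with 5.79 ± 0.13 at 6am, 9.51 ± 0.17 at 12pm, 8.36 ± 0.52 at 6pm and 6.20 ± 0.31 at 12am (SD, n = 3). It fell by 1.15 ± 0.24 from 12pm to 6pm (adjusted p = 0.00779 by limma), the step at which COR47 read 0.24 higher and COR15B rose. AT1G54410 (HIRD11), a small histidine-rich dehydrin, was at 13.47 ± 0.21, 14.44 ± 0.17, 14.43 ± 0.25 and 13.73 ± 0.20 from 6am to 12am (SD, n = 3), a 1.97-fold range. LEA (AT2G21490), AT4G38410 and AT4G39130 did not exceed 2.40. At 12pm and at 6pm both tested relatives of COR47 were called higher than at 6am, where 17.3% and 16.7% of all tested probe sets were. At 12am neither was (adjusted p = 0.247 for LTI30 and 0.302 for AT1G54410 by limma).

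Of 25 cold-regulated genes listed, 6 had a named probe set. All 6 were tested and called by the F-test, where 46.8% of all tested probe sets were. Beside COR15A, COR15B and COR47 these were LTI30, COR27 and AT4G33980. All 3 of the latter were called higher at 6pm than at 6am, where 16.7% of all tested probe sets were. Their median difference was 3.07 on the log2 scale against 0.01 over all tested probe sets. From 6am to 12pm LTI30 rose, COR27 fell by 1.90 ± 0.25 and AT4G33980 was not called (0.15 ± 0.42). COR27, a regulator of clock genes that is also induced by cold, was at 8.57 ± 0.47, 6.67 ± 0.20, 11.64 ± 0.27 and 10.10 ± 0.37 from 6am to 12am (SD, n = 3). AT4G33980 was at 5.12 ± 0.92, 5.26 ± 0.48, 9.43 ± 0.05 and 8.14 ± 0.60. Both rose between 12pm and 6pm, by 4.98 ± 0.25 and 4.16 ± 0.42, and both were higher at 12am than at 12pm, where the 4 genes were lower.

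**Figure D5:**
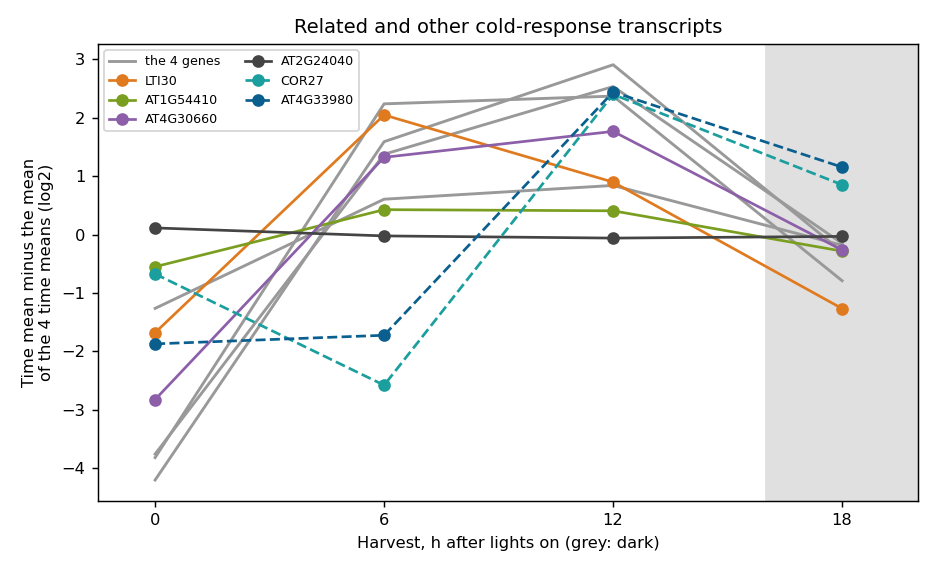
Time means minus the mean of the 4 times, log2 (vertical axis), against hours after lights on (horizontal axis), with the dark period in grey. Grey lines are COR15A, COR15B, COR47 and AT4G30650, and coloured lines are their tested relatives (solid) and COR27 with AT4G33980 (dashed), which are still low at 12pm.

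Among regulators, little was on a named probe set. Of 27 genes listed for cold signalling only STZ (ZAT10, AT1G27730), a zinc-finger repressor induced by many stresses, was, with 3.91 ± 0.23, 6.97 ± 0.69, 5.14 ± 2.34 and 5.32 ± 0.42 from 6am to 12am (SD, n = 3). It was higher at 12pm than at 6am by 3.07 ± 0.85 (adjusted p = 0.0160 by limma), and its F-test missed the threshold (adjusted p = 0.0589 by limma). At 6pm STZ read 7.84 on replicate 1 against 3.70 and 3.88 on replicates 2 and 3, so its 6pm mean lay near none of the arrays. The CBF genes themselves were not analysed here. Of 22 clock and light regulators 2 were named, and both were called by the F-test, where 46.8% of all tested probe sets were. GI (GIGANTEA) was listed at the floor at 6am and 12am and at 8.41 ± 0.37 at 12pm, and AT5G52660 (RVE6) was highest at 12pm with 7.56 ± 0.11 (SD, n = 3). None of the 14 abscisic acid and drought genes and none of the 6 membrane lipid genes listed had a named probe set.

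The transcripts whose day curve was most like that of each gene were sought among tested probe sets naming 1 gene, the 4 genes themselves left out, by the root mean square difference over the 12 arrays after each probe set was centred on its own mean. For COR15A the nearest outside the 4 were AT1G56300 (0.46 log2), AT1G11210 (0.64), AT4G14270 (0.73) and Fes1B (0.77). AT1G56300 had time means of 5.26, 11.14, 11.07 and 8.02 from 6am to 12am, level between 12pm and 6pm like COR15A. For COR15B they were AT4G16146 (0.39), Fes1B (0.51), AT4G30660 (0.63) and AT1G56300 (0.64). AT4G16146, at 7.27, 11.88, 12.82 and 11.02, went on rising after 12pm, as COR15B did.

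For AT4G30650 the nearest outside the 4 were AT4G16146 (0.74), AT1G56300 (0.81), Fes1B (0.82) and AT1G11210 (0.97). Fes1B, related to a partner of the chaperone Hsp70, was at 4.28, 9.64, 9.71 and 8.25 from 6am to 12am. For COR47 they were XERICO (0.20), a small RING-type protein linked to abscisic acid levels, UGT85A5 (0.22), a glucosyltransferase, AT2G47890 (0.22) and AT4G18930 (0.22). XERICO was at 9.17, 10.79, 11.09 and 9.74. Among the 4 genes themselves the smallest difference was that of COR15B and AT4G30650 (0.44), followed by COR15A and AT4G30650 (0.57) and by COR15A and COR15B (0.59). For COR15A 1 of the genes above was nearer than these, for COR15B 1 was nearer than AT4G30650, and for AT4G30650 none was. COR47 was 1.57 to 1.90 from the other 3 by this measure, which takes the narrower range into account. The points share their arrays, so these values describe likeness and are no test.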

How the data were processed

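Total RNA was hybridised to 12 Affymetrix arrays as biotinylated cRNA primed with oligo(dT), per the labels' protocols. The authors deposited log2 values, 1 per probe set. The submitters' processing notes name GCRMA, R 3.1 and affy 1.42.3. GCRMA takes background out by probe base content, brings arrays to 1 distribution and combines the probes of a set. The set of arrays processed jointly is not stated here. Medians without controls were 5.90 to 6.03 on every array. Arrays carry no read depth, and their number limits the precision.

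Names were read from the platform annotation, where 13513 of 22746 probe sets name 1 gene, 503 several and 8730 are unlisted. They were joined by gene identifier to RefSeq names of TAIR10.1. Of 7718 tested probe sets naming 1 gene, 7693 matched a locus. No genome build is named in the files, so no coordinates are given.

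Probe sets entered if 3 of 12 arrays reached a log2 of 4 (8561 did not), and 64 controls were left out. limma 3.58.1 in R 4.3.3 was fitted with 1 mean per harvest time over the 12 arrays (8 residual and 3.44 prior degrees of freedom). P-values are two-sided for differences and adjusted (Benjamini-Hochberg) over the 14185 probe sets, with calls below 0.05. The code of the fit was tried on simulated data with independent normal noise, 1 spread per probe set and no effect shared by replicate number. Such data do not show how the fit behaves where the spread differs between times or same-numbered arrays share an effect. Every member was named, with the 4 nearest patterns of each and the tested genes of the lists, which covered cold-regulated, cold signalling, clock, dehydrin, low temperature and salt, abscisic acid, membrane lipid and tissue marker genes. The members and lists were chosen with earlier results of these data known.

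Alternatives, given at the close, were other filters, quantile normalization, a trended and robust variance prior, the replicate block, replicates 2 and 3 alone and each array left out.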

Additional observations from a re-analysis of the deposited data

How the results depend on the processing

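Of 723 recomputed values of the 4 genes and of the COR15 pair, 712 kept direction and call (or lack of one), 10 gained a call, 1 lost it and none reversed under these alternatives. The alternatives were no filter on dim probe sets, a minimum of 6, values under 4 set to 4, quantile normalization, a variance prior with trend and robust, the replicate block, replicates 2 and 3 alone, each array left out, and a fit to the 6 arrays of each compared pair of times. Ranges of means and the size of the 24-h harmonic are never negative and could not reverse. The filters, values set to 4, trend and robust, the replicate block and the 6-array fits left every log2 difference unchanged. Under these only a call could change, as also for a difference when an array of another time was left out. AT4G30650 was called higher at 6pm than at 12pm with the replicate block (1.317, adjusted p = 0.0104 by limma), with trend and robust (1.317, 0.0463), from the 6 arrays of 12pm and 6pm by themselves (1.317, 0.00185) and with replicates 2 and 3 alone (1.233, 0.000349). With single arrays left out the difference ran from 1.198 to 1.389, with calls without 6am replicate 1, 6am replicate 2 or 12am replicate 1. The alternation of COR47 was called with quantile normalization (-0.45), with trend and robust (-0.422) and with the replicate block (-0.422), and that of AT4G30650 was not called without the filter (-1.294, adjusted p = 0.0552 by limma). The cause of these changes was not tested. The replicate block changed no other call of the 4 genes. Deviations from the time means correlated between same-numbered arrays at 0.26 to 0.56 for replicate 1, 0.37 to 0.65 for replicate 2 and 0.06 to 0.40 for replicate 3. All of these were above 0, so same-numbered arrays may share an effect. The main fit did not take the numbers to pair the samples, and the replicate block is given as the alternative that does. Over the alternatives, the range of the COR15A minus COR15B difference went from 1.30 to 1.66, and its exact p from 0.000909 to 0.0381 (0.00174 with times permuted within the replicate block).

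Counts over all tested probe sets moved by over 1.5 times as follows. For 6pm against 12pm, 2024 were called, 3303 with the replicate block, and 1313 and 1340 without 12pm replicate 2 or 3. For 12am against 6am, 3363 were called, 5111 with the replicate block, 5111 with replicates 2 and 3 alone, and 2126 and 2174 without 12am replicate 2 or 3. For 12am against 6pm, 2826 were called and 4313 with the replicate block. For the alternation, 1957 were called, 3627 with the replicate block, 3437 with replicates 2 and 3 alone, and 1212 and 1276 without 12am replicate 2 or 3. By Pearson correlation in place of the root mean square difference, the 4 nearest genes shared 2 with the main list for COR15B and 0 for COR15A, COR47 and AT4G30650.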

Other observations

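The spread between replicates of the 4 genes was unequal over the day. The SD of 3 arrays was 0.43 to 1.05 log2 at 6am, where the means were lowest. It was 0.06 to 0.21 at 6pm, where the means were highest. At 12am replicate 1 lay below the mean of the other two by 0.97 for COR15A, 0.85 for AT4G30650 and 0.37 for COR15B, and above it by 0.11 for COR47. The limma fit uses 1 spread per probe set for all times.

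By Pearson correlation over the 12 arrays, which leaves out the size of the swing, AT4G30660 was among the 4 nearest genes of COR15A (0.987), COR15B (0.992) and AT4G30650 (0.987) once COR15A, COR15B, COR47 and AT4G30650 themselves were left out. COR15B and AT4G30650 correlated at 0.994. With the same genes left out, the nearest to COR47 was PIFI (0.995), a gene of chloroplast electron flow after illumination, with time means of 11.49, 12.54, 12.75 and 12.12 from 6am to 12am. CCL, at 10.37, 12.77, 13.15 and 12.33, was the last of the 4 nearest to COR15B (0.989). These correlations share arrays and normalization and are given with no test.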
